A study of Mus musculus with 9 samples.

Results

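Gene expression was compared between forebrain cells given a Mcidas plasmid and cells given the reporter alone. The members were chosen by their titles, Mcidas n1 to n3 and GFP n1 to n3, which gave 6 of the 9 libraries of the series, and all 19572 genes that passed a filter on low counts were tested. Embryos of the C57Bl6DBa2 strain were electroporated in utero at E14.5 (embryonic day) and the GFP+ cells were sorted from forebrains at E16.5, 2 days later. The Mcidas group is labelled with the Mcidas plasmid (pCAAGS-Mcidas in the treatment label) and the GFP group with the H2B-GFP plasmid, a green fluorescent protein fused to the histone H2B. The treatment label joins the plasmids by "and/or", and the sort on GFP selected reporter-positive cells in every group. The other group of 3 libraries received GemC1, a relative of Mcidas whose gene is Gmnc. It entered the fit and is used for a direct comparison near the end. The CAG promoter of such plasmids is active in most cell types, and only the cells that an electroporation reaches carry them. The labels do not say whether the replicates came from separate litters, or whether embryos were pooled.

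Mcidas (multicilin) is a nuclear protein related to geminin, the inhibitor of replication licensing. It binds E2F4 or E2F5 with a DP partner, and this complex turns on the genes of multiciliated cells, such as the ependymal cells that line the brain ventricles. These cells leave the cell cycle, make many centrioles from structures called deuterosomes, dock them at the surface and grow a motile cilium on each. The axoneme of such a cilium has outer microtubules with dynein arms, radial spokes and a central pair of microtubules.

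Total counts ran from 22914704 to 41163917 per library, mitochondrial genes took 0.248% to 0.395% of counts, and levels are given as CPM (counts per unit of the library's TMM-scaled total). On the first principal component of the 6 libraries (54.8% of the variance), Mcidas libraries 1, 2 and 3 lay at 25.9, 63.1 and 70.5 and the GFP libraries between -64.0 and -47.3. On the second (14.2%), Mcidas library 1 lay at 60.0 and the other 5 libraries between -21.7 and 4.61. The deposited Mcidas files carry another year code than the others, so a batch tied to that code cannot be told apart from the effect of Mcidas.

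The labelled cell type, neural progenitor cells, was checked against 8 markers. Sox2, a progenitor transcription factor, was at 47.1, 54.5 and 58.2 CPM in Mcidas libraries 1, 2 and 3 and at 51.1, 49.0 and 40.4 CPM in the GFP libraries. Fabp7, a radial glia lipid carrier, was at 315, 466 and 415 CPM against 450, 428 and 329. Markers of the label were thus counted in all 6 libraries, and the groups overlapped for both genes. Hes5, another of the 8, did not overlap and was called lower (adjusted p = 0.0337, edgeR). Neuronal genes were counted at higher levels still: Dcx, a migration gene of young neurons, was at 1042, 952 and 907 CPM against 1053, 1118 and 1170, and the 34 excitatory neuron genes summed to between 12863 and 13860 CPM in Mcidas and between 13499 and 16036 CPM in GFP. Markers of progenitors and of neurons were thus counted in both groups. In such bulk samples, fewer cells of a type and less RNA per cell cannot be told apart.

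The introduced gene was high in every Mcidas library and under 1 CPM in every GFP library. Mcidas (ENSMUSG00000074651, mm10 chromosome 13, 112993845 to 113000394) was at 388, 508 and 597 CPM in Mcidas libraries 1, 2 and 3 and at 0.647, 0.663 and 0.690 CPM in GFP libraries 1, 2 and 3. Its log2 fold change was 9.54 ± 0.22 (SE, n = 3 per group, edgeR quasi-likelihood test, adjusted p = 1.07e-10). Library 1 had the lowest Mcidas level of the 3. Reads of the plasmid and of the chromosomal gene were not separated by the counts.

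Of the genes tested, 4.03% were called higher (788) and 0.327% lower (64) at an adjusted p under 0.05. The 2 directions differed in size as well as in number. Among the higher calls 425 exceeded 4-fold and 317 exceeded 8-fold, whereas a single lower call exceeded 4-fold. The median log2 fold change was 2.33 over the higher calls, -0.60 over the lower calls and -0.03 over all genes tested. Many of the genes called higher were nearly silent in the controls: 362 (45.9%) averaged under 1 CPM in GFP and 42 had no count in any GFP library. In the Mcidas group 426 (54.1%) averaged at least 10 CPM. Groups did not overlap for 779 of the 788 higher calls and for all 64 lower calls, where over all genes tested 10.7% lay wholly higher and 8.87% wholly lower. Protein-coding genes made up 714 of the higher and 54 of the lower calls. At an unadjusted p under 0.05 there were 1693 higher and 777 lower genes. The number of lower calls depended on single libraries: it was 99 without Mcidas library 1, 29 without Mcidas library 2, 33 without Mcidas library 3, and 37, 30 and 35 without GFP libraries 1, 2 and 3.

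**Figure D1:**
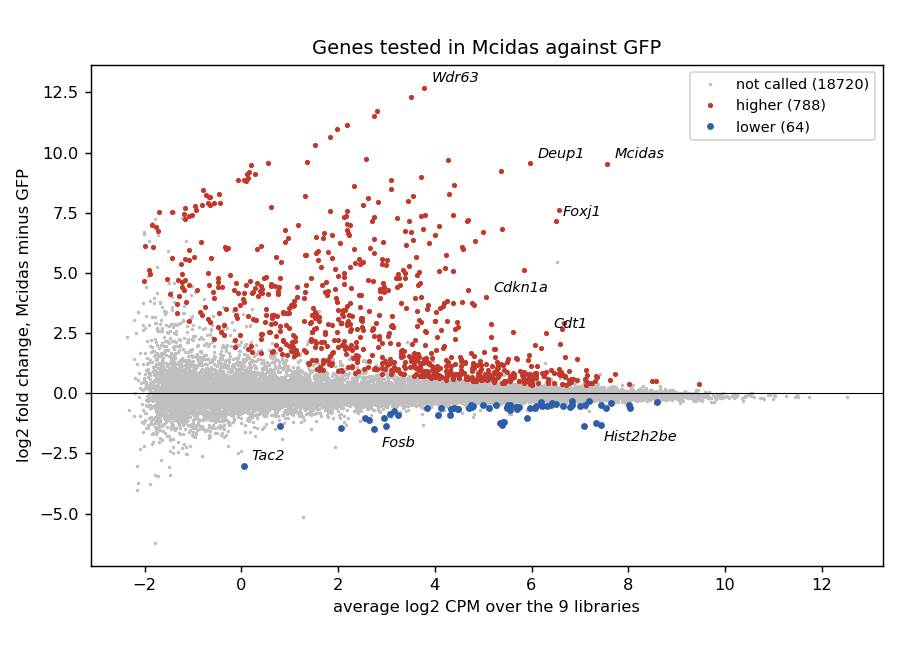
Log2 fold change of Mcidas over GFP (vertical axis) against the average log2 CPM over the 9 libraries (horizontal axis) for every gene tested; points are genes, red called higher (788), blue called lower (64), grey not called. Fitted log2 fold changes of higher calls reach 12.69 at low and middle levels, and the lowest called gene, Tac2, lies at -3.01. Genes without a count in GFP are drawn at their fitted value, which is not bounded by a floor of counts.

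**Figure D2:**
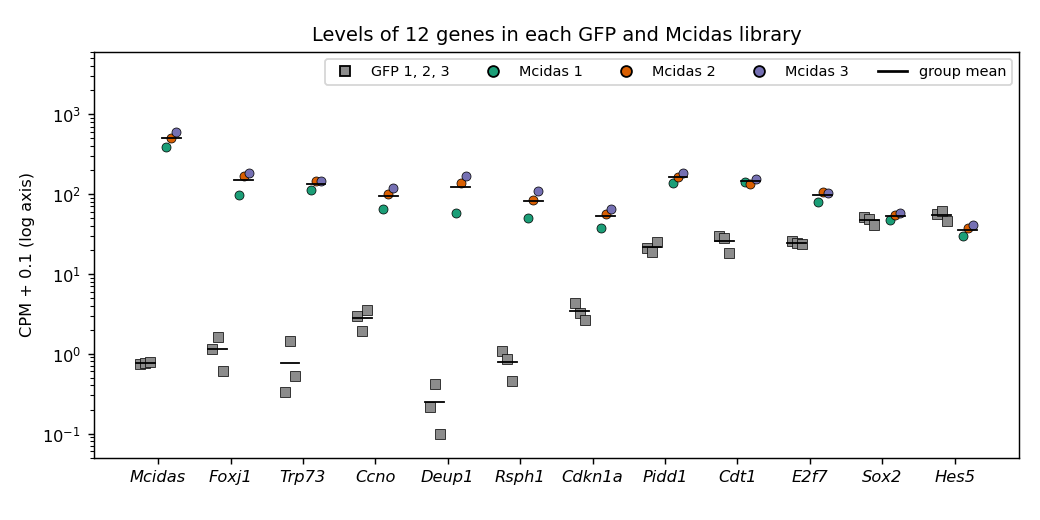
Levels of 12 genes in CPM plus 0.1 on a log axis; squares are the 3 GFP libraries, circles are the 3 Mcidas libraries and lines are group means. The groups do not overlap for the genes from Mcidas to E2f7 or for Hes5, and they overlap for Sox2.

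Among the 12 tested transcription and cell cycle regulators of multiciliated cells, 6 were higher (50%, against 4.03% of all genes tested). None was lower, and the median log2 fold change was 1.46. Trp73 encodes p73, the p53 relative required for multiciliated cells, and was at 113, 147 and 146 CPM against 0.235, 1.33 and 0.420 CPM. Foxj1, the forkhead factor of motile cilia, was at 95.8 CPM in Mcidas library 1 and above 170 CPM in the other 2, against at most 1.52 CPM in GFP. For both genes the lowest Mcidas library lay far above the highest GFP library. Myb, which drives centriole amplification, was at 48.6, 52.7 and 67.2 CPM against 6.94, 8.30 and 7.95 CPM. Foxn4, another regulator of multiciliated cells, was at 10.9, 20.9 and 29.2 CPM against 0.235, 0.516 and 0.780 CPM. Rfx2, which binds X-boxes of cilium genes, was at 21.8, 30.8 and 48.8 CPM against 4.29, 7.24 and 4.20 CPM (2.68 ± 0.29 on the log2 scale, SE, adjusted p = 0.000107). These 6 were the regulators that rose, with Ccno as the sixth. The related Rfx3 had 0.05 ± 0.10, and the Mcidas partners E2f4 and E2f5 had 0.06 ± 0.13 and -0.21 ± 0.16, none of them called.

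The chromosomal neighbours of Mcidas are genes of the same programme. Ccno, a cyclin-like protein of centriole amplification, lies at 112987802 to 112990777 on chromosome 13, and Cdc20b, a deuterosome protein, at 113035111 to 113091195. Ccno was at 65.5, 98.6 and 117 CPM against 2.88, 1.82 and 3.45 CPM. Cdc20b was at 14.6, 34.4 and 42.2 CPM against 0.294, 0.221 and 0.210 CPM. Both were lowest in Mcidas library 1, and neither overlapped with GFP.

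The 250 bases before the start of 5 genes called higher are shown because they hold the letters of sites for the factors named above (RefSeq, GRCm38.p6, written 5′ to 3′ on the strand of the gene). Capitals mark the matches: an X-box, the RFX site, in Ccno, and the E2F forms TTCCCGC and TTGGCGC in the others, searched on both strands. The promoters are chr13:112987552-112987801 (+) for Ccno, chr13:113035129-113035378 (+) for Cdc20b, chr2:125625114-125625363 (-) for Cep152, chr10:110745189-110745438 (+) for E2f7 and chr1:191575545-191575794 (-) for Dtl. For Cdc20b the RefSeq start lies inside the GENCODE gene span given above, so these bases fall within that span.
Ccno: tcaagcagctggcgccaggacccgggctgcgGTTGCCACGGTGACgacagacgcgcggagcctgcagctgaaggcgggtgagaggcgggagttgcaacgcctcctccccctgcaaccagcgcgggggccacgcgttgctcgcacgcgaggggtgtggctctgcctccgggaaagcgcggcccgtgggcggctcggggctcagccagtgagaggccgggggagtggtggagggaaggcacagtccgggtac
Cdc20b: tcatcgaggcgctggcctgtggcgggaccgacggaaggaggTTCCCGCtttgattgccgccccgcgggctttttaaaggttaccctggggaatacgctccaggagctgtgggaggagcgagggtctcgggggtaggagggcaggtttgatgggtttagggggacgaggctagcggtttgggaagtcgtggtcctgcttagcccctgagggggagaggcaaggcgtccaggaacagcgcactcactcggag
Cep152: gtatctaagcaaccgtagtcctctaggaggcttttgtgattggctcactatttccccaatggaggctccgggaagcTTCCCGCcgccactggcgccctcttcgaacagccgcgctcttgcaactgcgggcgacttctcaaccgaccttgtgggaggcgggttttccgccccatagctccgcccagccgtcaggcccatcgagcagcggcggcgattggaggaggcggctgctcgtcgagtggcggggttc
E2f7: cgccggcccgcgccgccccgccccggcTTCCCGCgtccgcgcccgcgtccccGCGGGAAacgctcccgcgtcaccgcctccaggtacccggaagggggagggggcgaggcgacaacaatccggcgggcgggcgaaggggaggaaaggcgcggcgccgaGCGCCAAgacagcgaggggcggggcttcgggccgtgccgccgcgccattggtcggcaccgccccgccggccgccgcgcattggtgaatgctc
Dtl: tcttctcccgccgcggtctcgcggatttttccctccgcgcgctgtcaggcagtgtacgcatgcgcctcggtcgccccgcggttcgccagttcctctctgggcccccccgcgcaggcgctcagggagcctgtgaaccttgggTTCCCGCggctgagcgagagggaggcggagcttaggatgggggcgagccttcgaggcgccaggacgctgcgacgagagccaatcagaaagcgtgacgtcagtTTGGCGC
The X-box of Ccno begins 219 bases before the start. The E2F forms begin 209 bases before the start in Cdc20b, 174 in Cep152, 223, 198 and 92 in E2f7, and 109 and 7 in Dtl. A match describes letters and not binding, which was not measured. Promoters of 300 bases (250 before and 50 after the start) were matched for 12021 of the genes tested and 601 of the higher calls. An X-box stood in 1.14% of all and in 4.83% of those called higher, and in 7 of 91 called genes of the motile cilium lists (7.69%). An E2F site of either form stood in 1632 of the 12021 (13.6%) and in 96 of the 601 called higher. The E2F share was 9.89% (9 of 91) in the called genes of the motile cilium lists. It was 13.1% in genes called higher at least 4-fold and 20.1% in those called higher under 2-fold. An E2F site stood in 5 of the 7 called genes of the replication and E2F lists. Members of these lists that were not called were not searched as a set, so the 5 of 7 cannot be tied to the call. A forkhead site (TGTTTAC) stood in 3.16% of all and 3.49% of those called higher, and the cell cycle homology region (TTTGAA) in 1738 and 79 genes.

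Centriole genes rose unevenly. In the list of deuterosome and procentriole assembly 7 of 23 tested genes were higher (30.4%, against 4.03% of all genes tested). None was lower, and the median log2 fold change was 0.42. Deup1, the scaffold of the deuterosome, was at 57.2, 137 and 168 CPM against 0.118, 0.319 and 0 CPM. Cep152, which recruits the kinase Plk4 to centrioles and whose promoter is shown above, was at 60.6, 92.5 and 118 CPM against 29.8, 33.8 and 25.3 CPM. Plk4 itself was at 60.1, 86.1 and 73.0 CPM against 37.0, 44.0 and 36.2 CPM. The 4 others that rose were Stil, a procentriole protein, at 1.03 ± 0.18 (log2, SE), Cetn2, a centrin, at 1.12 ± 0.14, Poc1a at 1.05 ± 0.20 and Cdc20b. Sass6, the cartwheel protein, had 0.22 ± 0.13 and was not called. Without Mcidas library 1, 11 members were called higher.

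Of 24 genes of centriole appendages and the centrosome 4 were higher (16.7%, against 4.03% of all genes tested), with a median log2 fold change of 0.18. Cntrl (centriolin) was at 124, 120 and 142 CPM against 64.6, 70.6 and 71.1 CPM, with library 2 the lowest. The others were Nin (ninein) at 1.14 ± 0.27 (log2, SE), Cep83, a distal appendage protein, at 0.66 ± 0.16 and Cep19 at 0.58 ± 0.14. Pcm1, the scaffold of centriolar satellites, had 0.27 ± 0.09 and Cep164, another distal appendage protein, 0.16 ± 0.18, neither called. This count fell to 1 without Mcidas library 2, Mcidas library 3, GFP library 1 or GFP library 3.

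Genes of the axoneme were called in large numbers. Over 9 lists of motile cilium genes, 111 of 140 tested members were higher (79.3%, against 4.03% of all genes tested) and none was lower, with a median log2 fold change of 3.64. These counts were 126 and 0 at an unadjusted p under 0.05, and DESeq2 called 119 higher and 0 lower. The lists held 147 matched genes, and a gene silent in GFP passed the low-count filter only through the Mcidas or GemC1 libraries. The share called thus applies to tested members. In the dynein arms that power bending, 14 of 15 inner arm genes rose (median 3.66) and 5 of 9 outer arm chains (median 0.78). Of the 12 outer arm symbols listed, 10 were matched. Dnaic1 and Dnaic2, outer arm intermediate chains, were counted outside every list. Both were called higher, at 4.10 ± 0.41 and 5.98 ± 0.41 (log2, SE), and the outer arm count and median leave them out. All 6 tested outer arm docking genes, of 7 matched, rose (median 4.32), and so did 11 of 16 assembly factors (median 0.89), which build the arms in the cytoplasm. Dnah12, an inner arm heavy chain, was at 11.3, 21.7 and 20.1 CPM against 0.029, 0.270 and 0 CPM. Dnah9, an outer arm heavy chain, was at 11.9, 19.5 and 25.8 CPM against 1.12, 0.958 and 0.450 CPM. Zmynd10, an assembly factor, was at 20.1, 46.6 and 61.1 CPM against 0.147, 0.540 and 0.150 CPM. For all 3 genes Mcidas library 1 was the lowest of its group and still above every GFP library. In the outer arm chains, calls were 3 without Mcidas library 2, Mcidas library 3 or any GFP library.

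The inner parts of the axoneme moved in the same direction. Radial spoke genes were higher in 14 of 16 (median log2 fold change 4.96), central pair genes in 14 of 16 (3.57), genes of the nexin-dynein regulatory complex and axonemal ruler in 10 of 13 (2.77), and tektins and microtubule inner proteins in 15 of 21 (3.65). Rsph1, a radial spoke head protein, was at 49.99, 83.7 and 108 CPM against 0.970, 0.761 and 0.360 CPM. Spef2, a central pair protein, was at 11.8, 20.5 and 25.3 CPM against 0.382, 0.147 and 0 CPM. Ccdc39 and Ccdc40 set the axonemal repeat, and both were present in controls: Ccdc39 was at 11.4, 14.1 and 15.4 CPM in GFP and at 48.8, 95.5 and 92.3 CPM in Mcidas. A further 22 of 28 motile cilium genes rose (median 4.79), with Crocc2, a rootletin relative, at 29.3, 93.0 and 120 CPM against 0.235, 0.147 and 0 CPM.

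Several axonemal genes had no count in GFP, so their folds are lower bounds against a floor of 3 counts per library. With these bounds the median log2 fold change was 3.995 for outer arm docking genes and 3.56 for tektins and microtubule inner proteins. Cfap161, a microtubule inner protein, was at 5.50, 16.2 and 18.4 CPM and at least 159-fold higher. Lrrc43, which stands outside every list, was at 5.41, 13.3 and 15.8 CPM and at least 137-fold higher. Ttll6, a tubulin polyglutamylase, was at 2.99, 10.7 and 13.3 CPM and at least 107-fold higher. Ccdc180, with 1 count over the GFP libraries, had a ratio of 1184 (95% counting interval 212 to 46802), at 7.40, 13.2 and 13.1 CPM in Mcidas.

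Not every cilium gene was called higher. Hydin, a giant central pair protein, was at 1.01, 6.30 and 7.02 CPM against 0.118, 0.958 and 0.210 CPM (3.41 ± 0.87 on the log2 scale, SE). It missed the threshold with an adjusted p of 0.0504 (edgeR) and was called higher in 5 of 16 alternatives. Tekt2, a tektin, stood at 43.9 ± 0.55 CPM against 44.96 ± 2.12 (SD, n = 3), and Dnah17, a dynein heavy chain, at 6.94 ± 1.798 against 6.95 ± 0.144 CPM. Ccdc153 and Tmem212, markers of mature ependymal cells, were too low to be tested. Ccdc153 reached 0.520 CPM in Mcidas library 3 and had no count in the GFP libraries, and Tmem212 had no count in any of the 6.

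Transport and membrane genes of cilia are also used by primary cilia. Intraflagellar transport genes were higher in 19 of 32 (median log2 fold change 0.61), transition zone and membrane genes in 12 of 24 (0.61) and BBSome genes in 4 of 13 (0.33), with none lower in these lists. These shares were 59.4%, 50% and 30.8%, against 4.03% of all genes tested. The counts higher were 26, 17 and 7 at an unadjusted p under 0.05, with 0 lower, and DESeq2 called 0 lower. Ift22, a subunit of the transport trains, was at 61.1, 78.3 and 82.0 CPM against 30.3, 26.3 and 25.7 CPM. Tmem107, a transition zone protein, was at 38.3, 55.9 and 63.7 CPM against 10.7, 9.75 and 10.6 CPM, and was the transition zone member with the largest fold (2.35 ± 0.16, log2, SE). Wdr19, a subunit of the retrograde train, was at 47.2, 45.1 and 52.1 CPM against 26.7, 27.5 and 26.4 CPM, and library 1 was not its lowest. Arl13b, a GTPase of the ciliary membrane, had 0.04 ± 0.14 and was not called. Calls in the transport list numbered 12 without Mcidas library 2 or GFP library 1 and 11 without Mcidas library 3 or GFP library 3. In the transition zone list they numbered 6 without Mcidas library 3 and 7 without Mcidas library 2, GFP library 1 or GFP library 3.

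Tubulins are the building blocks of microtubules. Of 15 tested (13.3% called higher, against 4.03% of all genes tested), Tuba1b (0.52 ± 0.10, log2, SE) and Tube1 (1.52 ± 0.16) were higher, with a list median of -0.06. Tube1 encodes epsilon-tubulin, a centriole protein, and was at 30.3, 36.7 and 31.7 CPM against 11.1, 11.6 and 11.6 CPM. Tubb4b, the main beta-tubulin of axonemes, was at 112, 173 and 209 CPM against 121, 97.9 and 102 CPM. Its groups overlapped through Mcidas library 1, and it was not called (adjusted p = 0.0757). Of 24 tubulin modifying enzymes 7 were higher, among them Ttll8, a glycylase, and Agbl4, a deglutamylase at 15.6, 13.2 and 15.2 CPM against 5.23, 6.34 and 4.20 CPM.

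Within the p53 target list 8 of 37 tested genes were higher and none lower (4.03% and 0.327% over all genes tested), with a median log2 fold change of 0.22. Of the 37, 15 were higher and 1 lower at an unadjusted p under 0.05, and DESeq2 called 0 lower. Pidd1, a p53-induced death domain protein that activates caspase-2 when centrosomes are in excess, was at 136, 163 and 185 CPM against 20.8, 18.9 and 24.9 CPM (2.90 ± 0.13 on the log2 scale, SE, adjusted p = 3.06e-07). Cdkn1a, which encodes p21, was at 37.1, 56.6 and 65.3 CPM against 4.23, 3.12 and 2.58 CPM. Neither gene overlapped between groups, and both were lowest in Mcidas library 1. Eda2r, a receptor of the tumour necrosis factor family, was at 13.7, 15.8 and 8.75 CPM against 2.85, 3.66 and 2.43 CPM, lowest in library 3. Phlda3, an AKT inhibitor, rose by 2.07 ± 0.33, Dglucy by 1.74 ± 0.26, Polk, a DNA polymerase that bypasses lesions, by 1.08 ± 0.20 and Ccng1, cyclin G1, by 0.52 ± 0.12 on the log2 scale. The eighth, D630023F18Rik, had no count in GFP and averaged under 1 CPM in Mcidas. Mdm2, the ligase that degrades p53, was at 169, 156 and 163 CPM against 149, 142 and 163 CPM, and Trp53 at 108, 99.8 and 109 against 118, 106 and 103 CPM, neither called. In the p53 family and its regulators Trp73 was the member called of 6 tested.

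Shares near the background were called among other damage and death genes (4.03% higher over all genes tested). Of 33 tested genes of DNA damage signalling and repair, H2afx, the histone H2AX, was called: it was at 179, 221 and 262 CPM against 167, 133 and 152 CPM, a call lost without Mcidas library 2 or 3, without GFP library 2 or 3, with the replicate number as a block (which took the count to 0) and on the 6 libraries alone. Of 17 apoptosis genes none was called (1 was higher and 0 lower at an unadjusted p under 0.05, and by DESeq2 1 was higher). Casp2, the caspase that PIDD1 activates, had -0.06 ± 0.08 on the log2 scale (SE).

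Replication genes include the licensing factors, the S phase enzymes and their E2F regulators. In the licensing list 2 of 21 tested genes were higher (median log2 fold change -0.11), in DNA synthesis and S phase 4 of 31 (0.02) and among E2F and DP factors 1 of 10 (0.01), with none lower in the 3 lists and 4.03% higher over all genes tested. With an unadjusted p under 0.05 there were 3, 7 and 2 higher and 1, 4 and 0 lower, and DESeq2 called 2 S phase genes lower. Cdt1, the licensing factor that loads the MCM helicase and is the target of geminin, was at 142, 133 and 155 CPM against 29.7, 27.9 and 18.3 CPM. Its log2 fold change was 2.499 ± 0.15 (SE, adjusted p = 1.11e-06). E2f7, an E2F repressor with 3 E2F matches in its promoter above, was at 79.2, 106 and 104 CPM against 25.4, 24.1 and 23.3 CPM. Dtl, the adaptor by which a ubiquitin ligase destroys CDT1 in S phase, was at 136, 140 and 132 CPM against 79.8, 72.7 and 61.6 CPM. Lig1, the ligase of the lagging strand, was at 134, 128 and 125 CPM against 73.8, 63.3 and 56.8 CPM. These 4 genes did not overlap between the groups. Slbp, which binds histone mRNA, rose by 0.95 ± 0.10, Mcm3 by 0.74 ± 0.11 and Pola2, a primase-polymerase subunit, by 0.67 ± 0.13 on the log2 scale.

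Most of their partners were not called. Gmnn, which encodes geminin, was at 13.6, 13.5 and 16.54 CPM against 20.1, 14.98 and 13.7 CPM. Mcm2 had 0.26 ± 0.10 (log2, SE), Pcna, the sliding clamp, 0.02 ± 0.11, E2f1 -0.13 ± 0.11 and Cdc6, the other MCM loader, -0.53 ± 0.22, none called. Of 32 genes of G2/M and mitosis none was called (DESeq2 called 1 higher and 1 lower, and at an unadjusted p under 0.05 there were 1 and 2), with a median of -0.01. Without Mcidas library 1 or without GFP library 1, 1 was called higher. Mki67, the proliferation marker, was at 99.2, 111 and 136 CPM against 125, 146 and 115 CPM. Of 17 cyclin-dependent kinase inhibitors, G1 cyclins and pocket proteins, Cdkn1a was the member called (median -0.05). That share was 5.88%, near the 4.03% of all genes tested. The S phase list gained 2 lower members without Mcidas library 1 and the licensing list 1.

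The 3 Mcidas libraries differed most in the genes that rose most. Over the higher calls the median log2 difference from the GFP mean was 1.53, 2.44 and 2.53 in libraries 1, 2 and 3, and library 1 was the lowest of the 3 for 694 genes (88.1%). Over all genes tested library 1 was the lowest for 33.5%. The median SD of log2 CPM over the higher calls was 0.485 within Mcidas, 0.290 within GFP and 0.222 within GemC1, against 0.195, 0.168 and 0.218 over all genes tested. The gap between library 1 and the mean of libraries 2 and 3 widened with the fold: its median was -0.24 for 191 genes called below 2-fold, -0.59 for 172 genes from 2- to 4-fold, -1.01 for 192 genes from 4- to 16-fold and -1.40 for 233 genes above 16-fold. These values come from the same libraries as the calls and are a description. Mcidas itself was 388 CPM in library 1 against 508 and 597 CPM; whether its level has a part in the gap was not tested. Without library 1 the higher calls numbered 951.

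The gap differed between lists. It was -0.77 in the called multiciliated regulators, -1.24 in the called radial spoke genes and -1.30 in the called central pair genes, but -0.30 in the called transport genes. These lists also differed in fold, with a median log2 fold change of 4.96 over tested radial spoke genes and 0.61 over tested transport genes. Whether the gap differed between functions at a like fold was not tested. The 4 called S phase genes had a median gap of 0.04, and library 1 was the lowest for none of them. Among list members that mostly were not called, library 1 was also the lowest for 30 of 32 G2/M genes (median gap -0.39) and 21 of 28 radial glia genes (-0.25). It was the lowest for 1 of 18 intermediate progenitor genes (0.27), 1 of 14 interneuron genes (0.63) and 2 of 31 S phase genes (0.14). Ribosomal protein genes had a gap of -0.02 over 76 members. Among higher calls with at least 10 CPM in Mcidas, those with the largest SD were Tekt4, Lrrc74b, Ppp1r36, Gm973 and Map3k19, and those with the smallest were Gkap1, Wdr13, Mfap1a, Dtl and Dnal1. Tekt4, a tektin, was at 2.53, 14.3 and 16.8 CPM, whereas Wdr13 was at 116, 115 and 119 CPM against 87.7, 94.7 and 94.3 CPM.

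**Figure D3:**
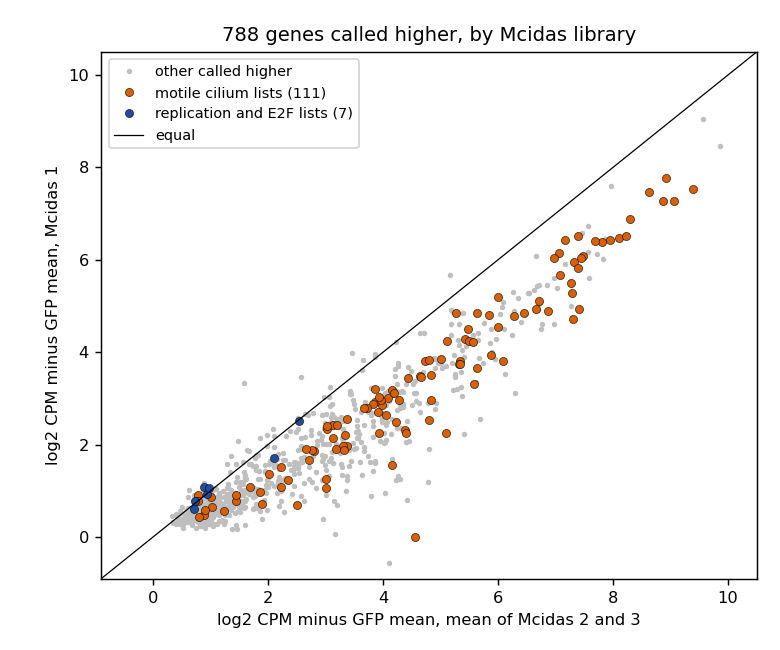
Each point is a gene called higher (788), with its log2 CPM minus the GFP mean in Mcidas library 1 (vertical axis) against the mean of Mcidas libraries 2 and 3 (horizontal axis); orange points are motile cilium genes (111), blue points are replication and E2F genes (7) and the line marks equal values. Most motile cilium genes lie below the line, with a widening distance at larger values, and the blue points lie near it.

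**Figure D4:**
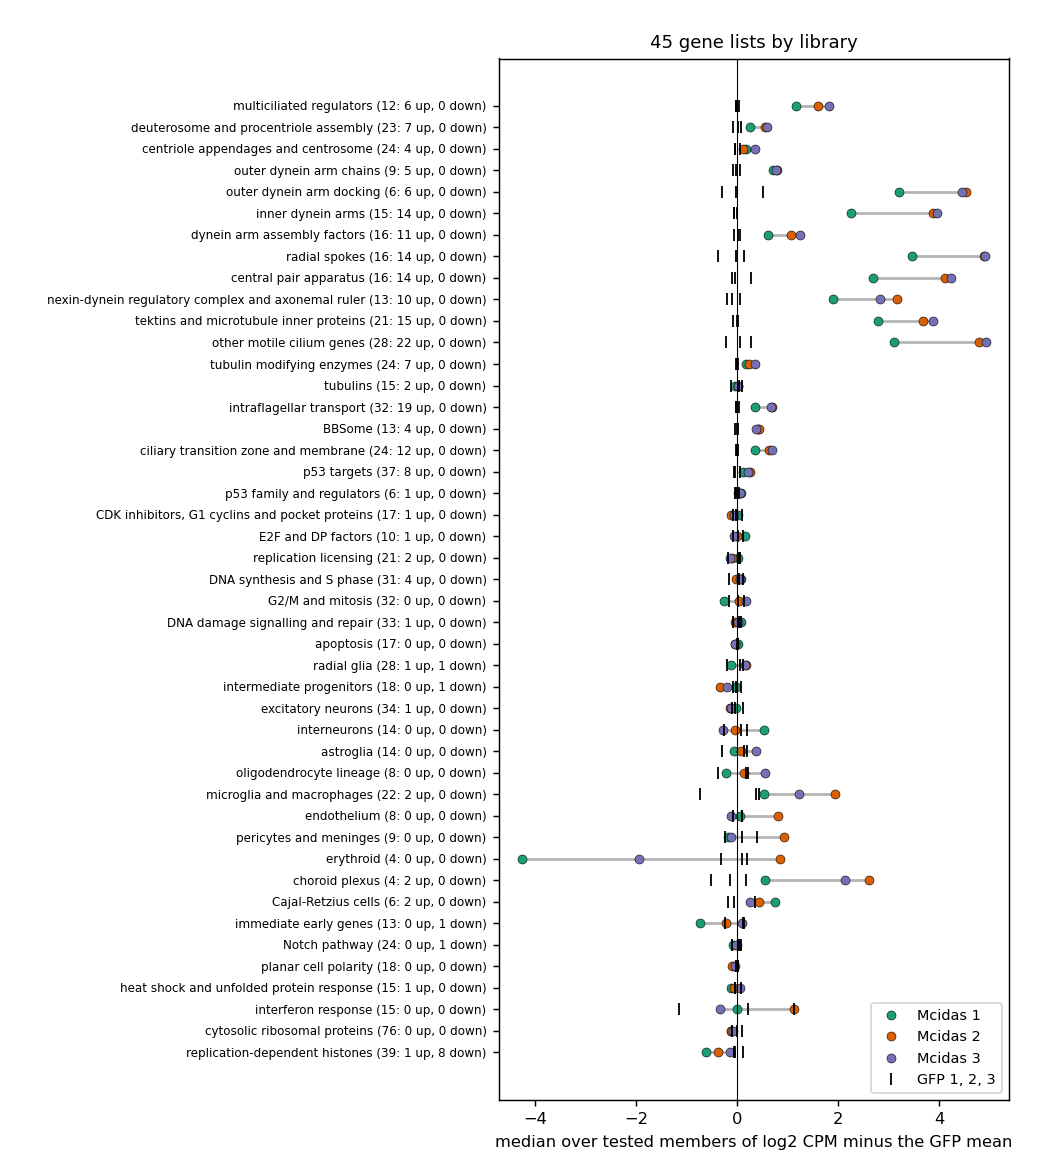
Median over the tested members of each of 45 lists of log2 CPM minus the GFP mean (horizontal axis) in each library; circles are Mcidas libraries 1, 2 and 3, ticks are the GFP libraries, and labels give the number tested and the numbers called higher (up) and lower (down). Lists of axonemal parts stand apart from the GFP ticks in every Mcidas library, with library 1 nearest to them.

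Genes outside every list made up 590 of the higher calls, of which 140 changed under 2-fold and 157 over 16-fold. The 10 with the highest levels had log2 fold changes from 0.37 ± 0.09 for Nt5dc2 to 1.44 ± 0.16 for Wdr90 (SE). Wdr90, a centriole wall protein, was at 143, 176 and 194 CPM against 73.8, 57.8 and 57.5 CPM. Rif1, a regulator of replication timing, was at 257, 273 and 299 CPM against 148, 176 and 155 CPM. Ssrp1, a subunit of the histone chaperone FACT, was at 427, 442 and 491 CPM against 344, 306 and 297 CPM. Nudc, a dynein cofactor, and Ntrk2, a neurotrophin receptor, rose by 0.68 ± 0.13 and 0.72 ± 0.13 on the log2 scale. In the heat shock list Hsp90aa1, a chaperone, was the member called of 15, at 376, 422 and 468 CPM against 309, 302 and 289 CPM. That share (6.67%) lay near the 4.03% of all genes tested, and the list median was 0.03.

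Histone H2B genes were the largest family among the lower calls. Of 39 tested replication-dependent histone genes 8 were lower (against 0.327% of all genes tested) and 1 higher, with a median log2 fold change of -0.47. Hist1h2bb was at 54.6, 70.3 and 89.6 CPM against 251, 161 and 134 CPM, and Hist2h2be at 72.6, 94.1 and 103 CPM against 285, 188 and 162 CPM. Hist1h2bm, Hist1h2bf and Hist2h2bb had log2 fold changes of -1.32, -1.31 and -1.25, and Hist1h2bc and Hist3h2ba -0.91 and -0.47. The other lower member was the H2A gene Hist3h2a at -0.53. The higher member, Hist1h2be, is also an H2B gene, at 6.31, 5.63 and 4.76 CPM against 1.65, 2.01 and 2.70 CPM.

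By class, a split made after the values were seen, 7 of 12 tested H2B genes were lower, 1 of 9 H2A genes, and none of 5 H1, 7 H3 and 6 H4 genes. At an unadjusted p under 0.05, 9 of the 39 histone genes were lower and 1 higher. Counts of H2B summed to 386, 469 and 547 CPM in Mcidas, to 1228, 866 and 805 CPM in GFP and to 888, 664 and 904 CPM in GemC1. Mcidas lay below both other groups in every library. The reporter plasmid carries an H2B coding sequence, and the gene counts do not separate its reads from those of these chromosomal genes. Its sequence was not compared with theirs. The part of the plasmid in this difference was not tested. Gm42743 and Gm20628, both lower (-1.20 and -1.18), overlap Hist2h2bb on chromosome 3 (96269752 to 96270132), and without strand their reads cannot be separated from it. Without a low-count filter 3 histone genes were lower, and without Mcidas library 2 there were 5. The higher call of Hist1h2be was lost without Mcidas library 2, GFP library 1 or GFP library 2.

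**Figure D5:**
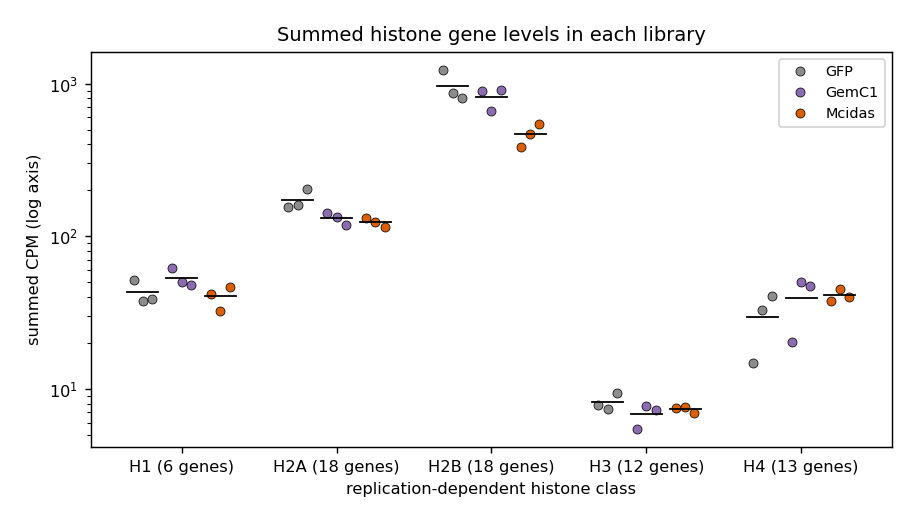
Summed CPM on a log axis of the replication-dependent histone genes of each class (horizontal axis, with the number of genes listed) in each library; points are libraries of GFP, GemC1 and Mcidas and lines are group means. The H2B sums of the 3 Mcidas libraries (386 to 547 CPM) lie below those of the 3 GFP libraries (805 to 1228 CPM).

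Lower calls outside the histone list include the lowest fold of all, that of Tac2 (-3.01 on the log2 scale). Kif26b, a kinesin-like protein, was at 48.3, 39.3 and 31.5 CPM against 85.3, 90.4 and 66.2 CPM (-1.02 ± 0.16 on the log2 scale, SE, adjusted p = 0.00153). Car14, a carbonic anhydrase, was at 4.12, 3.50 and 2.99 CPM against 9.17, 6.16 and 7.50 CPM. Bcl6, a transcriptional repressor that promotes neurogenesis in cortical progenitors, was at 7.60, 6.70 and 6.58 CPM against 10.7, 12.5 and 16.3 CPM. Tac2, a neuropeptide precursor, was at 0.346, 0.061 and 0.216 CPM against 1.73, 1.67 and 1.71 CPM. Fosb, an immediate early gene, was at 2.04, 3.04 and 1.34 CPM against 6.56, 5.94 and 5.82 CPM. Its list held no other called gene of 13 tested, and Fos was at 44.1, 88.8 and 94.8 CPM against 166, 131 and 86.9 CPM. Onecut2 and Shisa9, also among the lowest, had -1.42 ± 0.32 and -0.90 ± 0.22.

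The other lower genes named here were chosen after their values were seen. Plcb1, a phospholipase of receptor signalling, was at 234, 190 and 235 CPM against 310, 351 and 332 CPM. Frmd6, an upstream member of the Hippo pathway, was at 33.4, 34.04 and 41.9 CPM against 53.2, 60.1 and 65.2 CPM. Syn2, a synaptic vesicle protein, was at 37.5, 42.9 and 42.0 CPM against 60.8, 66.2 and 53.6 CPM. The transcription factors Foxp4 and Hic2 had log2 fold changes of -0.56 and -0.47, and Tenm4, a teneurin of neurons, had -0.37. Calls for Bcl6, Car14, Shisa9 and Onecut2 were lost without Mcidas library 2 and without Mcidas library 3. They were also lost without GFP library 1 (Car14, Shisa9, Onecut2), GFP library 2 (Bcl6, Shisa9) or GFP library 3 (Bcl6, Onecut2), and for Shisa9 without GemC1 library 3. With the replicate number as a block Shisa9 and Onecut2 lost their calls as well.

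Progenitor and neuron lists had calls in both directions, to be read against 4.03% higher and 0.327% lower over all genes tested. Of 28 radial glia genes Fgfr2, a growth factor receptor, was higher, at 102, 116 and 127 CPM against 71.1, 71.5 and 56.02 CPM. Hes5, a Notch effector, was lower, at 29.5, 37.1 and 40.9 CPM against 55.4, 60.8 and 45.3 CPM. The list median was 0.06, and Notch1, a receptor upstream of Hes5, had -0.14 ± 0.13. Of 24 Notch pathway genes Hes5 was the gene called. The call of Hes5 was lost in 7 of 16 alternatives, among them those without Mcidas library 1, Mcidas library 2, GFP library 1, GFP library 2 or GemC1 library 1 and that with the replicate number as a block.

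Of 18 intermediate progenitor genes Slc17a6, a glutamate transporter, was lower, at 197, 161 and 164 CPM against 215, 225 and 248 CPM, and the median was -0.17. With an unadjusted p under 0.05, 7 of these 18 were lower and 1 higher, and DESeq2 called 3 lower. Eomes, which defines these cells, was at 231, 160 and 163 CPM against 266, 248.8 and 202 CPM, and Neurog2 at 245, 175 and 203 CPM against 274, 276 and 257 CPM, neither called. For Eomes the groups overlapped through Mcidas library 1, and for Neurog2 they did not overlap. The list had 5 lower members without Mcidas library 1 and none without Mcidas library 2, Mcidas library 3 or any GFP library, and none with the replicate number as a block. Among 34 excitatory neuron genes Mef2c, a transcription factor of neurons that microglia also express, was higher at 27.0, 41.4 and 32.5 CPM against 22.3, 21.8 and 19.5 CPM, a call lost without Mcidas library 2, Mcidas library 3 or any GFP library. The list median was -0.12. In that list 6 genes were lower and 2 higher at an unadjusted p under 0.05, and DESeq2 called 1 lower and 2 higher. Of 14 interneuron, 14 astroglia and 8 oligodendrocyte lineage genes none was called, with medians of 0.06, 0.06 and 0.13. An unadjusted p under 0.05 was met by 1 interneuron gene (higher), by 2 astroglia genes higher and 1 lower, and by 0 oligodendrocyte genes. In these lists DESeq2 called 1 astroglia gene higher, as did the fit without Mcidas library 1. Gfap and S100b, the defining astrocyte markers, stayed under 1.2 CPM in every library of both groups.

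Markers of cells outside the neural lineage were counted at low levels. The microglia and macrophage list summed to 56.4, 85.6 and 73.9 CPM in Mcidas against 52.7, 52.8 and 35.1 CPM in GFP, and 21 of 22 tested members lay above 0 on the log2 scale (median 1.27). The members called were C1qb, a complement subunit, at 1.90, 4.20 and 3.64 CPM against 0.9995, 0.638 and 0.660 CPM, and P2ry12, a purine receptor, at 1.58, 2.10 and 2.08 CPM against 0.323, 0.982 and 0.300 CPM. The groups did not overlap for either gene. The share called higher was 9.09%, against 4.03% of all genes tested. In this list 10 genes were higher and 0 lower at an unadjusted p under 0.05, and DESeq2 called 5 higher. None of the 25 listed markers was at 0 throughout either group. The call of P2ry12 was lost in 8 of 16 alternatives, among them those without Mcidas library 2, Mcidas library 3, GFP library 1, GFP library 3, GemC1 library 1 or GemC1 library 3. The part of these cells in any other difference was not tested. Endothelial markers (14 listed, 8 tested) summed to 43.6 to 49.4 CPM in Mcidas and 43.9 to 47.3 CPM in GFP, with none called and Slco1a4 at 0 in both groups. Pericyte and meningeal markers (9 tested) summed to 12.0 to 29.0 against 13.8 to 19.3 CPM, with none called. In both lists 0 genes passed at an unadjusted p under 0.05 or by DESeq2.

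Erythroid markers summed to between 1.84 CPM (Mcidas library 1) and 27.4 CPM (Mcidas library 2), against 12.7 to 19.04 CPM in GFP, with none of 4 called and the embryonic globins Hbb-bh1 and Hba-x at 0 in both groups. By DESeq2 and at an unadjusted p under 0.05 0 erythroid genes passed, and without Mcidas library 2 1 was called lower. The choroid plexus list had 4 tested members of 12 listed, and 2 were higher (50%, against 4.03% of all genes tested). Both were so low in GFP that they passed the low-count filter only through the Mcidas or GemC1 libraries. The share thus applies to tested members. Clic6, a chloride channel protein, was higher at 2.56, 6.82 and 6.63 CPM against 0, 0 and 0.330 CPM. Igf2, a growth factor, was higher at 0.230, 2.74 and 2.12 CPM against 0.059, 0.123 and 0.090 CPM. The call of Clic6 was lost without a low-count filter. In that setting and on the 6 libraries alone, 1 member of the list was called higher. Ttr, the defining marker of that tissue, had 1 count in Mcidas and 1 in GFP in all. The Cajal-Retzius list summed to 129 to 165 CPM against 13.8 to 15.2 CPM, nearly all of the Mcidas sum being Trp73, and Reln, the defining marker of these neurons, was at 2.02, 4.93 and 3.33 CPM against 5.06, 2.01 and 4.17 CPM. Besides Trp73, Cacna2d2, a calcium channel subunit, was the member called. Planar cell polarity genes (18 tested) and interferon genes (15 tested) had no calls in the fit reported. Of the polarity genes 1 was higher and 1 lower at an unadjusted p under 0.05, and 0 interferon genes passed. DESeq2 and 4 other alternatives, among them those without GemC1 library 1 or GemC1 library 3, called 1 polarity gene lower, and DESeq2 called 0 interferon genes.

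Mcidas and GemC1 libraries were compared directly to see which of these changes differed between the groups. The year code also separates these groups, so a batch tied to it cannot be told apart from a difference between the factors. The 2 contrasts against GFP share their control libraries, so no overlap between them is given. In the direct test 7 genes were higher with Mcidas (0.0358% of those tested) and 3 lower (0.0153%). The GemC1 libraries held Mcidas itself at 76.8, 60.3 and 73.1 CPM, against at most 0.690 CPM in the GFP libraries. Of 140 motile cilium genes none was called in either direction (the median log2 difference was 0.46). At an unadjusted p under 0.05, 18 of them were higher with Mcidas and 0 lower. DESeq2 called 2 of them higher, as did the fit without a low-count filter, and 3 were called higher without Mcidas library 1. At an unadjusted p under 0.05, 1305 genes of all tested were higher and 1246 lower, and DESeq2 called 298 higher and 196 lower. Cdt1 averaged 143 CPM with Mcidas and 68.5 CPM with GemC1, a log2 difference of 1.06 ± 0.14 (SE, adjusted p = 0.0234). The count of genes higher was 1 without Mcidas library 2, 3 without any GFP library or GemC1 library 2, and 4 without GemC1 library 3. With the replicate number as a block it was 3.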

How the data were processed

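RNA from 9 libraries (3 groups of 3) was prepared with SMART-Seq v4 from 10 ng of total RNA and Nextera XT and read for 75 bp, per the labels' protocols. The deposited values are raw counts per Ensembl gene, and the build was mm10, per the submitters' processing notes, which also name HTSeq 0.5.3 and STAR 2.5.2b. For the annotation release and strand setting, the sources used here give nothing. Of 53379 identifiers per table, 53274 were matched to GENCODE M21.

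Tests used edgeR 4.0.16 (R 4.3.3): filterByExpr (minimum count 10, total 15), TMM, a robust quasi-likelihood fit on all 9 libraries with group as the only term, two-sided, Benjamini-Hochberg adjustment over the genes tested. SE is derived from the F statistic, and spread uses log2 CPM with a prior count of 2. P-values cover variation among these samples only, which may be technical. Counting intervals and the floor of 3 counts cover counting error only. The script was tested on simulated data.

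The members and lists were chosen with earlier results of these data known. The genes named are Mcidas, Gmnc, Foxj1 and Cdt1; the 12 largest and 12 smallest called log2 fold changes with average log2 CPM of at least 2, an established symbol and no overlap; up to 3 called and the key members of each list; up to 6 genes each way against GemC1; the 10 highest called genes outside lists; and the 5 called genes of largest and 5 of smallest Mcidas SD. Other genes were named after their values were seen. Same-numbered Mcidas and GFP libraries were not treated as pairs. Alternatives were DESeq2 1.42.0, its size factors in edgeR, other low-count filters, a replicate block, the 6 libraries alone, removal of mitochondrial, globin and introduced genes, and leaving out each library.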

Additional observations from a re-analysis of the deposited data

Results flagged for a closer look

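The Mcidas and GemC1 groups differed for 10 genes in a direct test (edgeR quasi-likelihood, adjusted p under 0.05), and these are given as values. A batch tied to the year code of the Mcidas files cannot be told apart from an effect of the plasmid. Higher with Mcidas on the log2 scale were Mcidas itself (2.83), Zfp708 (1.43), Gabra2 (1.25), Cdt1 (1.06), St6gal2 (0.96), Ttc9 (0.65) and Ina (0.65). Lower were Gmnc (-10.67), Gm10800 (-5.15) and Fosb (-2.43). Mcidas and Gmnc are the genes on the plasmids. Mcidas was also counted in the GemC1 libraries, at 76.8, 60.3 and 73.1 CPM. St6gal2, a sialyltransferase, was at 66.6, 69.1 and 65.3 CPM with Mcidas and at 31.0, 31.3 and 41.2 CPM with GemC1, while GFP stood at 51.0, 52.1 and 59.0 CPM. Gabra2, a GABA receptor subunit, was at 24.3, 37.2 and 22.8 CPM against 13.7, 11.8 and 10.2 CPM with GemC1. For both genes every GFP library lay between the Mcidas and GemC1 libraries, with Gabra2 in GFP at 18.96, 20.9 and 20.7 CPM. Gm10800 was at most 0.638 CPM in the Mcidas and GFP libraries and between 7.73 and 19.6 CPM with GemC1.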

How the results depend on the processing

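The 788 higher calls against GFP ranged from 557 to 951 when a library was left out, and 470 genes were called higher in all 17 settings. The 64 lower calls became 127 by DESeq2 and 123 without a low-count filter, ranged from 29 to 99 when a library was left out, and 10 genes were lower in all 17 settings. Against GemC1 the 7 higher calls became 298 by DESeq2, 129 without a low-count filter, 3 with the replicate block, 3 without mitochondrial, globin, Mcidas and Gmnc counts and 2 on the 6 libraries compared, and ranged from 1 to 8 when a library was left out. The 3 lower calls became 196 by DESeq2 and 66 without a low-count filter, and ranged from 3 to 5. The cause of these differences was not tested. Of 114 named genes called, 86 kept the call in every alternative that tested them and none reversed. With the replicate number as a block the calls against GFP were 666 higher and 46 lower. Same-numbered Mcidas and GFP libraries had correlations of deviations of -0.21, 0.05 and -0.18, and not every library correlated best with its own number. The deviations were taken from group means, so these correlations depend on one another. They cannot decide whether the numbers pair the samples. Depth limits low genes: 3 counts correspond to 0.0737 to 0.130 CPM.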
